A study of Homo sapiens with 12 samples.

Results

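A set of 10 genes of polyamine metabolism was followed through ribosome footprints and total RNA of PANC-1 cells. They are the 4 synthesis enzymes ODC1, AMD1, SRM and SMS, the catabolic enzyme SAT1, the antizymes OAZ1 and OAZ2, the antizyme inhibitor AZIN1, and EIF5A with its modifying enzyme DHPS. The genes were chosen by name, as genes of this pathway together with EIF5A. Some of them are known for translation controlled by leader reading frames or frameshifting. All 10 were found among the 20212 genes of the count table, AMD1 by its Ensembl identifier because its name there had been rewritten in the style of a spreadsheet number. All 10 also passed the minimum of 10 counts summed over the footprint libraries and 10 over the RNA libraries, as 13329 genes did.

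The cells were PANC-1, a human line established from a pancreatic cancer, which the labels describe as duct cells, and they were grown in medium with serum. The 2 groups were cells given the solvent DMSO and cells collected 60 min after addition of 50 nM rapamycin, an inhibitor of the kinase complex mTORC1, with 3 cultures each and no genetic change labelled in either group. Each culture gave 1 library of ribosome-protected fragments (RF) and 1 of total RNA, 12 libraries in all. The comparison asks which mRNAs, beside the others, gained or lost ribosomes relative to their RNA, a ratio called translation efficiency (TE). All replicates came from this 1 line.

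RF counts summed to 303220, 881106 and 1574723 in DMSO replicates 1, 2 and 3 and to 1255675, 792690 and 278835 in rapamycin replicates 1, 2 and 3, against 78081241 to 94293744 in the RNA libraries. Values are given as CPM, counts scaled to library size after TMM normalization. A count of 0 in an RF library allowed up to 3 counts, or 2.03 to 9.93 CPM, for counting error only. Of 9 duct and epithelial markers, 8 were at 1 FPKM (fragments scaled to transcript length and library size) or more in every RNA library, with KRT19 at 1326 to 1428, while the duct gene CFTR stayed under 1 and 3 of 4 mesenchymal but 0 of 4 fibroblast and stellate markers reached 1 in every library. All 4 acinar and all 3 endocrine markers also stayed under 1, and CD68 was the 1 of 3 leukocyte markers above it, at 69.0 to 88.3 FPKM.

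Polyamines are small positively charged molecules that bind RNA and are needed for growth. ODC1 makes putrescine from ornithine, AMD1 supplies the aminopropyl donor, and SRM and SMS use that donor to make spermidine and spermine. When polyamines are plentiful, ribosomes on the OAZ mRNAs shift frame and complete antizyme, which binds ODC1 and sends it to the proteasome, and AZIN1, a relative of ODC1 without its activity, takes up antizyme. SAT1 acetylates spermidine and spermine for export or breakdown. Spermidine also gives EIF5A, an elongation and termination factor, its hypusine residue, a modification begun by DHPS.

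The frameshift sites of both antizyme mRNAs are shown because they set how an OAZ footprint count can be read. In each, the stop codon of the first frame is in capitals, read from GRCh37 at chr19:2271430-2271456 (plus strand) for OAZ1 and chr15:64983700-64983726 (minus strand) for OAZ2.
OAZ1: cggtggtgctccTGAtgcccctcaccc
OAZ2: ctgtggtgctccTGAtgcccctcaccc
The windows were identical at 26 of 27 bases. The first frame held 68 codons before the stop in OAZ1 and 32 in OAZ2, and the shifted frame 160 and 157 codons. A gene count sums footprints from both frames, so the share of ribosomes that shifted was not measured here.

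After 60 min of rapamycin, TE of 7 of the 10 genes was estimated lower and of 3 higher, but none passed an adjusted p of 0.05 in edgeR's quasi-likelihood test. Over all genes tested, 0% were called lower and 0% higher in TE. The median log2 fold change of TE over the 10 genes was -0.12, beside -0.06 over all 13329 genes. CPM are shares of a library, so fewer cells with an mRNA and less of it per cell cannot be told apart. Scaling was done within each library type, so a change common to all mRNAs would not show. Lower and higher TE are therefore relative to other genes. SAT1 had the lowest estimate at -1.13 and OAZ1 the highest at 0.30. In RF alone 0 of 10 passed, against 0% of all genes called lower and 0.0075% higher, and in total RNA 0 of 10 passed, against 0% in either direction. With an unadjusted p below 0.05, SAT1 was lower in TE (6.43% of all genes were) and no member was higher (6.16%), none was lower or higher in RF (1.94% and 1.76% of all genes), ODC1 was lower in total RNA (2.63%) and SAT1 was higher (3.24%).

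**Figure D1:**
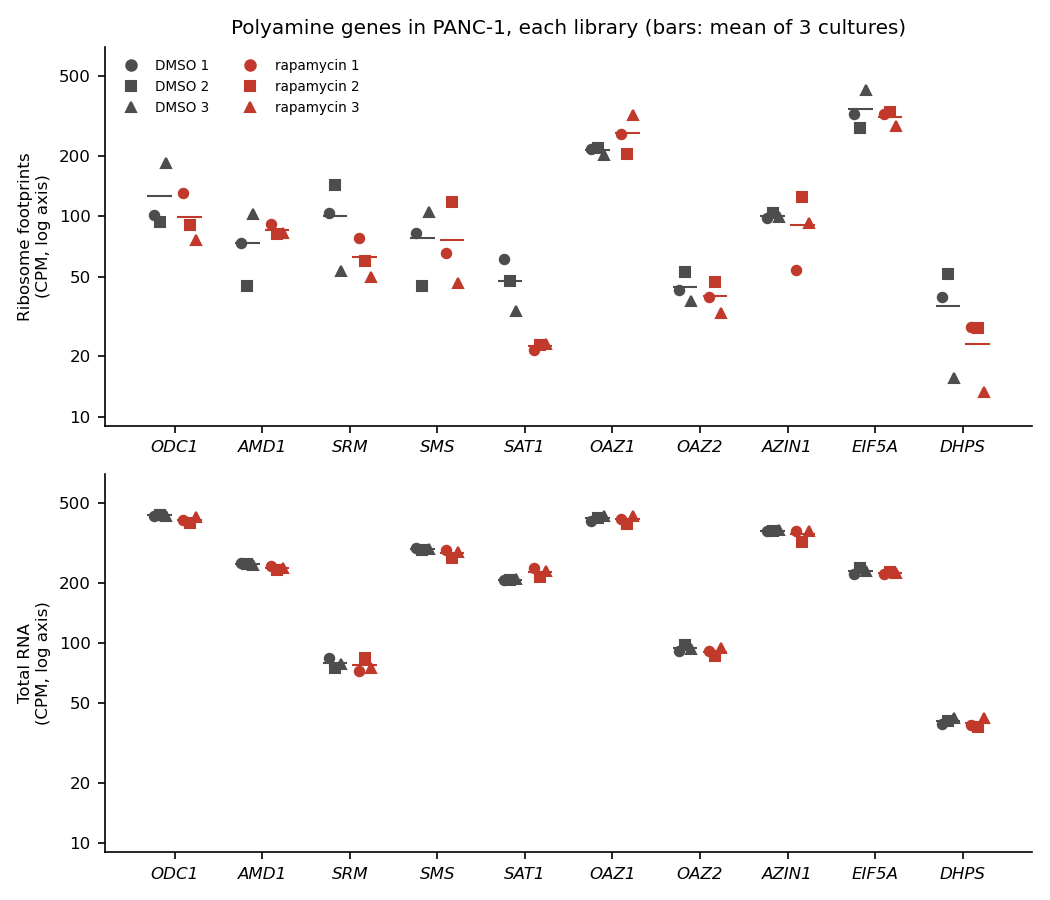
CPM of the 10 genes in each RF library (top) and each total RNA library (bottom), on log axes, with symbols for replicates 1 to 3, grey for DMSO, red for rapamycin and a bar at each mean of 3 cultures. The RNA values of a gene lie close together, from 38.2 to 42.1 CPM for DHPS to 393 to 432 for OAZ1, while RF values spread widely, and only the SAT1 rapamycin cultures all lie below the DMSO cultures in RF.

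**Figure D2:**
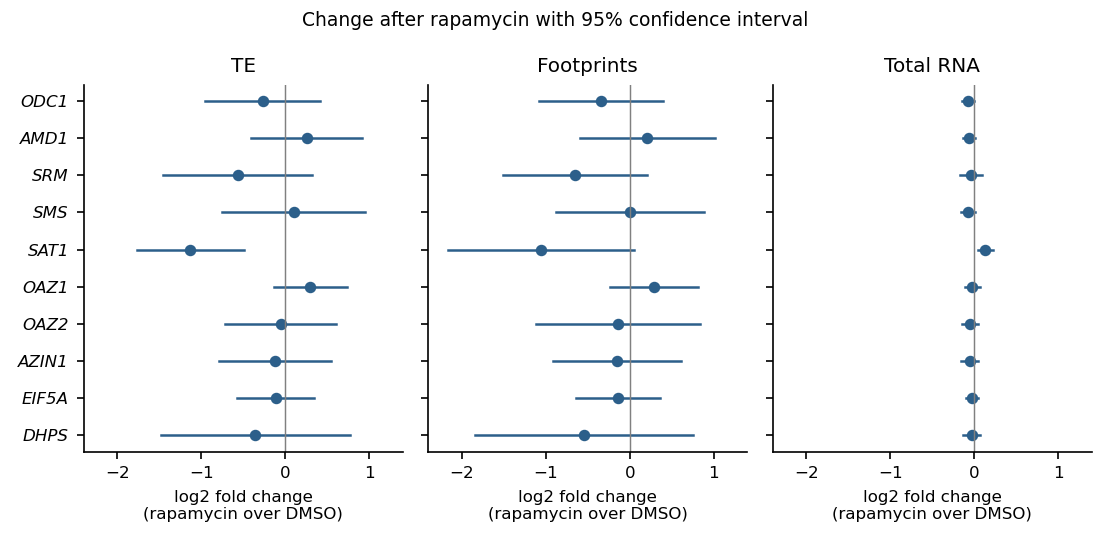
Log2 fold change of rapamycin over DMSO for the 10 genes in TE, RF and total RNA (horizontal axes), with points for the edgeR estimate and lines for its 95% confidence interval. The intervals for total RNA are narrow and near 0, those for RF and TE are wide, and in TE only the interval of SAT1, -1.77 to -0.49, lies wholly on 1 side of 0.

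SAT1 (ENSG00000130066, GRCh37 chrX:23801290-23804327, plus strand) had the largest estimated difference of the members in RF, TE and total RNA. In RF it was counted 20, 38 and 50 times in DMSO replicates 1, 2 and 3 and 26, 19 and 7 times in rapamycin replicates 1, 2 and 3. Scaled, these were 61.2, 47.6 and 33.9 CPM in DMSO and 21.5, 22.9 and 23.2 CPM in rapamycin. The 3 rapamycin values were each under the lowest DMSO value. They lay close together, but 3 counts are 9.93 CPM in rapamycin replicate 3, so this closeness is no measure of precision. The DMSO values fell from replicate 1 to 3 while library counts rose from 303220 to 1574723.

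SAT1 total RNA was higher in rapamycin cultures. It was 206, 205 and 208 CPM in DMSO and 236, 213 and 229 CPM in rapamycin, so that all rapamycin cultures lay above all DMSO cultures. SAT1 was the 1 member placed wholly below DMSO in RF (4.22% of all genes were) and the 1 placed wholly above it in total RNA (8.08%).

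The TE of SAT1, RF over RNA in each culture, was 0.298, 0.232 and 0.163 in DMSO and 0.0910, 0.108 and 0.101 in rapamycin. It was the 1 member whose 3 rapamycin cultures all had a lower TE than DMSO, which 6.18% of all genes showed. The fitted log2 fold change of TE was -1.13 (SE 0.30), a fold of 0.457 with a 95% interval of 0.294 to 0.710. The unadjusted p was 0.00189 and the adjusted p 0.232 in edgeR, rank 99 of 13329 genes. In RF alone the log2 fold change was -1.05 (SE 0.52, unadjusted p 0.0609, adjusted p 0.9997), and in total RNA it was 0.13 (SE 0.04, unadjusted p 0.00835, adjusted p 0.762). The exact two-sided permutation test of log2 TE over cultures gave p = 0.1, the smallest that 3 against 3 allows.

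The call on SAT1 depended on the tool and on 1 culture. DESeq2's Wald test put its TE at -1.05 on the log2 scale with an adjusted p of 0.00279, in a fit that called 1253 genes against 0 in edgeR, or 4.61% of the genes with an adjusted p lower and 5.21% higher. Likewise, edgeR without DMSO replicate 3 gave -1.41 with an adjusted p of 0.0326, in a fit that called 398, or 2.67% of genes lower and 0.522% higher. Every other alternative kept the direction and an adjusted p above 0.05, and the unadjusted p did not stay below 0.05 in all of them.

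**Figure D3:**
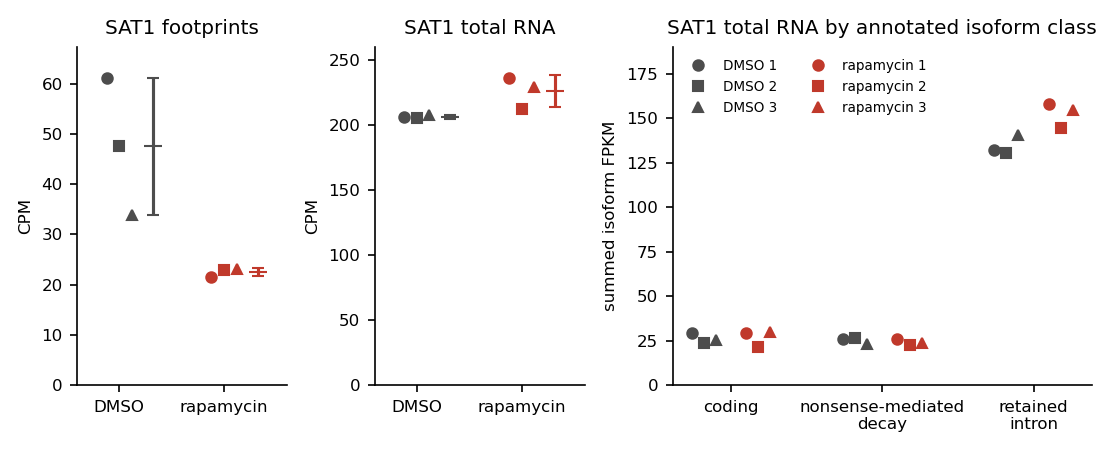
SAT1 in each culture, as RF (left, CPM), total RNA (middle, CPM, both with mean ± SD of 3 cultures beside the points) and total RNA summed over isoforms by annotated class (right, FPKM). In rapamycin RF lay between 21.5 and 23.2 CPM, from 26, 19 and 7 counts in replicates 1, 2 and 3. The retained-intron class lay between 144 and 158 FPKM in rapamycin, beside 130 to 140 FPKM in DMSO.

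Most SAT1 total RNA was assigned to isoforms annotated as carrying a retained intron, which do not encode the enzyme. The 8 annotated SAT1 isoforms accounted for 97.5% of the gene's FPKM. The 5 retained-intron isoforms took 70.5% to 76.8% of their sum per library, the nonsense-mediated decay isoform SAT1-208 took 11.4% to 14.7%, and the 2 coding isoforms took 11.2% to 15.6%. SAT1 mRNA is known for an exon with stop codons whose inclusion sends the transcript to nonsense-mediated decay, a step that polyamines control. TE as computed from gene counts divides footprints by all of these classes together.

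By class, coding SAT1 RNA was 29.3, 23.4 and 25.2 FPKM in DMSO and 29.2, 21.1 and 30.02 FPKM in rapamycin. The retained-intron class was 132, 130 and 140 FPKM in DMSO and 158, 144 and 154 FPKM in rapamycin. Of single isoforms, SAT1-206, a retained-intron form and the most abundant, was 51.1, 52.2 and 54.1 FPKM in DMSO and 64.4, 60.2 and 61.2 FPKM in rapamycin. On the log2(FPKM + 1) scale this was 0.23 (SE 0.04), with an unadjusted p of 0.00192 and an adjusted p of 0.990 in limma. SAT1-208, the decay form, had a log2 difference of -0.06 (SE 0.08). Isoform values are estimates from short reads that overlapping isoforms share.

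ODC1 (ENSG00000115758, chr2:10580094-10588453, minus strand), the enzyme that opens the pathway, had RF values of 101, 94.0 and 184 CPM in DMSO and 131, 90.3 and 76.1 CPM in rapamycin. The groups overlapped, and DMSO replicate 3, the deepest RF library, held the highest value. Total RNA was 431, 435 and 430 CPM in DMSO and 409, 398 and 423 CPM in rapamycin, with every rapamycin culture lower. The log2 fold change in total RNA was -0.08 (SE 0.03, unadjusted p 0.0412, adjusted p 0.762, edgeR), a fold of 0.949. In TE it was -0.27 (SE 0.32, adjusted p 0.772), and it turned to 0.14 without DMSO replicate 3.

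ODC1 had 4 annotated isoforms. ODC1-202, the most abundant, was 107 to 110 FPKM in DMSO and 97.2 to 110 in rapamycin. ODC1-201 was 45.2, 44.3 and 42.0 FPKM in DMSO and 39.4, 41.5 and 40.1 FPKM in rapamycin, a log2 difference of -0.12 (SE 0.05, unadjusted p 0.0412, adjusted p 0.990, limma). The decay form ODC1-204 was 12.8, 17.4 and 18.6 FPKM in DMSO and 19.8, 16.0 and 18.5 FPKM in rapamycin.

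AMD1 (ENSG00000123505, chr6:111195973-111220082, plus strand) carries in its leader the best known polyamine-sensed reading frame. The frame is shown because a gene count over exons includes footprints on it, which were not counted apart from coding ones. It spans chr6:111195999-111196019 on the plus strand of GRCh37 in transcript AMD1-204, with start, codons and stop in capitals.
AMD1 leader frame: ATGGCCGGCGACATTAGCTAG
It has 6 codons before its stop, begins 11 bases after the cap site and ends 289 bases before the start codon of AMD1. In the published mechanism, polyamines hold the ribosome at the end of this peptide.

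AMD1 RF values were 73.5, 45.1 and 102 CPM in DMSO and 91.8, 81.9 and 82.7 CPM in rapamycin. The rapamycin values all lay inside the DMSO range. Total RNA was 250.6, 247.1 and 245.3 CPM in DMSO and 243, 230 and 236 CPM in rapamycin, every rapamycin culture lower, with a log2 fold change of -0.07 (SE 0.03, unadjusted p 0.0555, adjusted p 0.762, edgeR). For TE the log2 fold change was 0.26 (SE 0.31, adjusted p 0.773), with a 95% interval of the fold from 0.757 to 1.89.

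SRM, spermidine synthase (ENSG00000116649, chr1:11114641-11120077, minus strand), had the second lowest TE estimate. Its RF values were 104, 144 and 53.5 CPM in DMSO and 77.7, 60.2 and 49.6 CPM in rapamycin, so the groups overlapped through DMSO replicate 3. Total RNA was 83.9, 75.1 and 78.6 CPM in DMSO and 72.7, 83.7 and 75.1 CPM in rapamycin. The log2 fold change of TE was -0.57 (SE 0.42, unadjusted p 0.194, adjusted p 0.607, edgeR), and it was 0.03 without DMSO replicate 2.

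SMS, spermine synthase (ENSG00000102172, chrX:21958827-22012955, plus strand), had RF values of 82.7, 45.1 and 105 CPM in DMSO and 65.3, 118 and 46.3 CPM in rapamycin. Neither group stood above the other. Total RNA was 298, 291.4 and 296 CPM in DMSO and 290.7, 264 and 284 CPM in rapamycin, all 3 rapamycin cultures below DMSO, replicate 1 narrowly. The log2 fold change was -0.08 (SE 0.04, adjusted p 0.762, edgeR), and -0.04 without rapamycin replicate 2. For TE the log2 fold change was 0.10 (SE 0.40, adjusted p 0.946). In CPM, ODC1, AMD1 and SMS were thus the 3 members with every rapamycin culture below DMSO in total RNA. This placement was that of 6.76% of all genes, and the RNA folds of the 3 members, 0.948 to 0.954, were small. In FPKM of the same libraries AMD1 kept this placement, but ODC1 and SMS did not. ODC1 was at 168.5 FPKM in rapamycin replicate 3 and 165.4 in DMSO replicate 1. SMS was at 129.1 FPKM in rapamycin replicate 1 and 128.8 in DMSO replicate 2.

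OAZ1 (ENSG00000104904, chr19:2269508-2273489, plus strand), the main antizyme, had RF values of 217, 219 and 203 CPM in DMSO and 257, 206 and 321 CPM in rapamycin. The DMSO cultures lay close together, and rapamycin replicate 2 fell among them. Total RNA was 407, 421 and 432 CPM in DMSO and 416, 393 and 431 CPM in rapamycin. TE per culture was 0.534, 0.521 and 0.471 in DMSO and 0.618, 0.524 and 0.744 in rapamycin, a log2 fold change of 0.30 (SE 0.20, unadjusted p 0.164, adjusted p 0.578, edgeR), higher under every alternative tried. The exact permutation test of log2 TE gave p = 0.2.

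OAZ2 (ENSG00000180304, chr15:64979772-64995480, minus strand) had RF values of 42.9, 52.7 and 37.9 CPM in DMSO and 39.7, 47.0 and 33.1 CPM in rapamycin, with no separation of the groups. Its log2 fold change of TE was -0.05 (SE 0.31, adjusted p 0.998, edgeR), with a 95% interval of the fold from 0.610 to 1.52. The unadjusted p in edgeR was 0.992, larger than this SE alone would give. RNA of OAZ2 was 91.2, 97.6 and 92.9 CPM in DMSO and 90.6, 86.0 and 94.2 CPM in rapamycin.

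AZIN1 (ENSG00000155096, chr8:103838339-103906092, minus strand) had RF values of 98.0, 104 and 98.9 CPM in DMSO and 53.7, 125 and 92.6 CPM in rapamycin. The DMSO cultures were nearly equal, and the rapamycin cultures lay on both sides of them. Total RNA was 362, 362 and 364 CPM in DMSO and 362, 320 and 362 CPM in rapamycin, with replicate 2 apart from the other two. In TE it had a log2 fold change of -0.12 (SE 0.31, adjusted p 0.907, edgeR).

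Ratios within a library need no scaling between libraries, and they set the antizyme beside its target. The RF count of OAZ1 over that of ODC1 was 2.15, 2.33 and 1.11 in DMSO and 1.96, 2.28 and 4.22 in rapamycin (exact permutation p = 0.5). In total RNA the same ratio was 0.945, 0.968 and 1.004 in DMSO and 1.02, 0.986 and 1.02 in rapamycin (exact permutation p = 0.2). The RF count of AZIN1 over OAZ1 was 0.451, 0.474 and 0.487 in DMSO and 0.209, 0.608 and 0.289 in rapamycin (exact permutation p = 0.4). The groups overlapped in each ratio. OAZ1 footprints outnumbered OAZ2 footprints 4.17 to 5.36 times in DMSO and 4.38 to 9.70 times in rapamycin, beside 4.32 to 4.65 times in total RNA over all 6 cultures.

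EIF5A (ENSG00000132507, chr17:7210318-7215782, plus strand) was the member with the most footprints, 1709 counts over the 6 RF libraries. The codon for the lysine that becomes hypusine is shown for EIF5A and its paralog EIF5A2, because it is the residue on which DHPS and DOHH act. Codon 50, in capitals, lies within chr17:7213090-7213116 (plus strand) for EIF5A and chr3:170625434-170625460 (minus strand) for EIF5A2, both GRCh37.
EIF5A: tcgaagactggcAAGcacggccacgcc
EIF5A2: tccaaaactggaAAGcatggtcatgcc
EIF5A RF values were 325, 277 and 428 CPM in DMSO and 322, 331 and 281 CPM in rapamycin, and total RNA was 220, 236 and 228 CPM in DMSO and 221, 227 and 223 CPM in rapamycin. In TE it had a log2 fold change of -0.11 (SE 0.21, adjusted p 0.866, edgeR), with a 95% interval of the fold from 0.673 to 1.27.

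Only uniquely aligned reads were counted, and EIF5A shares most of its coding sequence with a processed copy. Of its 438 coding windows of 28 bases, about the length of a footprint, 343 occurred elsewhere in GRCh37, a share of 78.3%, and all 343 occurred in EIF5AL1. Of the 438 windows of EIF5AL1, 433 occurred elsewhere, a share of 98.9%. Footprints listed for EIF5AL1 itself numbered 42, 92 and 138 in DMSO and 142, 89 and 33 in rapamycin. It held 17.9% to 29.4% of the RF counts of both genes but 1.53% to 1.90% of the RNA counts. Counts of EIF5A and EIF5AL1 in RF are therefore uncertain, and the part of this sharing in the EIF5A values was not tested. SMS had 73.6% and AMD1 30.8% of coding windows elsewhere in the genome, and the other 7 members at most 1.06%.

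**Figure D4:**
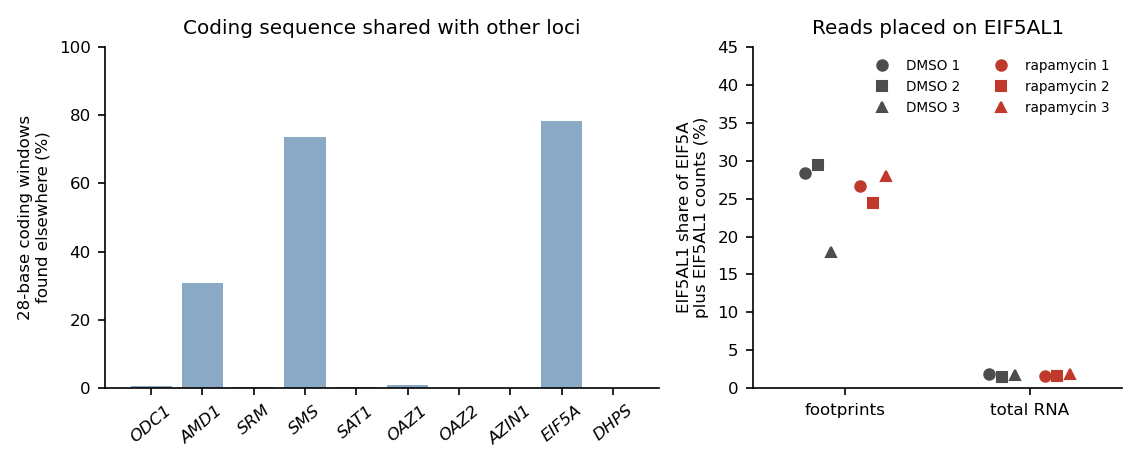
Left, the percentage of each gene's 28-base coding windows that also occur elsewhere in GRCh37; right, the percentage of the summed EIF5A and EIF5AL1 counts that was placed on EIF5AL1 in each library, for RF and total RNA. EIF5A, SMS and AMD1 stand out on the left at 78.3%, 73.6% and 30.8%, and on the right RF lies at 17.9% to 29.4% against under 2% in RNA.

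DHPS (ENSG00000095059, chr19:12786531-12792694, minus strand), the first hypusination enzyme, had the fewest footprints of the 10, 138 in all. RF values were 39.8, 51.4 and 15.6 CPM in DMSO and 28.1, 27.7 and 13.2 CPM in rapamycin. The groups overlapped, since DMSO replicate 3 lay below rapamycin replicates 1 and 2. The log2 fold change of TE was -0.35 (SE 0.53, adjusted p 0.822, edgeR) with a 95% interval of the fold from 0.358 to 1.71, and that of total RNA -0.03 (SE 0.05). Isoforms annotated as coding took 42.3% to 47.6% of the DHPS isoform FPKM, retained-intron forms 31.2% to 37.5%, and decay forms 17.2% to 22.0%.

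Of 89 annotated isoforms of the 10 genes, 53 had a mean of at least 1 FPKM and were tested on the log2(FPKM + 1) scale, and 0 passed in limma, with a smallest adjusted p of 0.990. Over all 38790 isoforms tested, 0.00516% were called lower and 0.00258% higher. With an unadjusted p below 0.05 there were 3 (2.9% of all isoforms were lower and 1.84% higher), SAT1-206 higher and ODC1-201 lower, with the values above, and EIF5A-202 higher, at 29.5 to 32.04 FPKM in DMSO and 32.6 to 39.3 in rapamycin (unadjusted p 0.0443, adjusted p 0.990). EIF5A-205, the main EIF5A form, was 122 to 127 FPKM in DMSO and 125 to 131 in rapamycin. AMD1-204 held 83.7%, SMS-202 96.5%, SRM-201 85.3% and OAZ2-201 63.9% of their genes' FPKM over the 6 RNA libraries, and for AZIN1 the form AZIN1-202 was at 43.6 to 44.6 FPKM and AZIN1-201 at 35.6 to 36.3 FPKM in DMSO. For OAZ1 the isoforms matched by identifier covered 50.1% of the gene's FPKM, since the annotation versions differ, and no class shares are given for it.

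Compared per length in DMSO, total RNA ran in the order OAZ1, EIF5A, SAT1, ODC1, SMS, AZIN1, AMD1, SRM, OAZ2 and DHPS. OAZ1 was at 413 ± 15.4 FPKM, EIF5A at 206 ± 4.86, SAT1 at 190.1 ± 3.0, ODC1 at 169 ± 3.32 and SMS at 130 ± 0.748 (SD, n = 3). AZIN1 followed at 93.5 ± 0.885, AMD1 at 71.7 ± 1.52, SRM at 57.1 ± 3.50, OAZ2 at 54.6 ± 0.971 and DHPS at 33.5 ± 0.227 FPKM. Neighbours in this order did not overlap over the 3 cultures, except SRM and OAZ2. All 10 were expressed above the median of the 10485 genes with a coding length and a mean of at least 1 FPKM, 15.9 FPKM in DMSO.

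RF per coding kilobase gave another order. EIF5A was at 743 ± 167 CPM per kilobase and OAZ1 at 312 ± 12.9, each apart from the next gene. SRM, at 111 ± 50.1, was followed by SAT1 at 92.7 ± 26.7, ODC1 at 91.3 ± 36.0, OAZ2 at 78.5 ± 13.2, AZIN1 at 74.6 ± 2.44, AMD1 at 73.5 ± 28.5, SMS at 70.7 ± 27.5 and DHPS at 32.2 ± 16.5, and from SRM on each overlapped the next. The ratio of RF density to FPKM put SAT1 at percentile 24.2, ODC1 at 27.4 and SMS at 27.96 of 10485 genes, and OAZ2 at 67.2, SRM at 77.5 and EIF5A at 90.9. OAZ1 was at 39.4, AZIN1 at 41.7, DHPS at 49.5 and AMD1 at 52.6. RF counts were taken over whole exons, leaders included, and only then divided by coding length. The coding length of OAZ1 and OAZ2 spans both frames, and for EIF5A, SMS and AMD1 the RF values rest on unique reads of genes with shared windows.

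**Figure D5:**
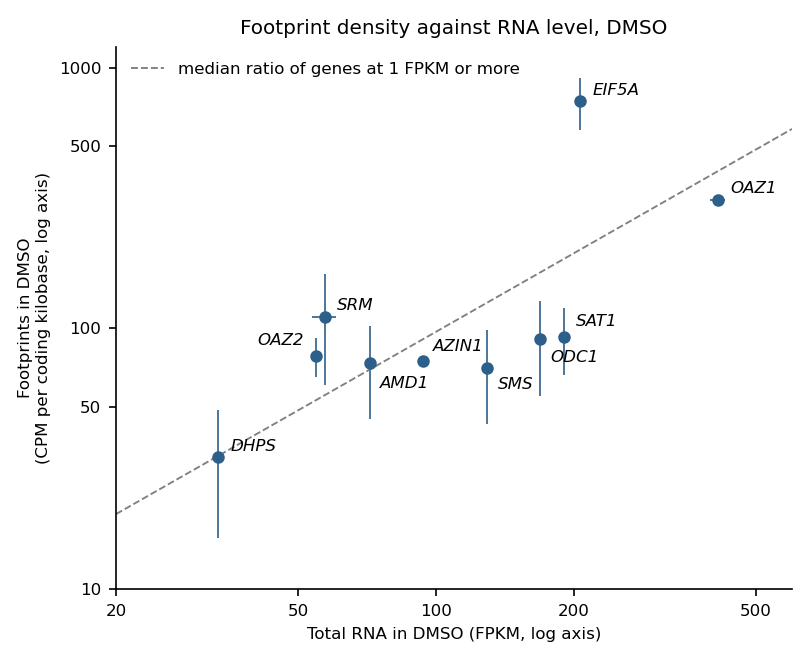
RF per coding kilobase (vertical, CPM per kilobase) against total RNA (horizontal, FPKM) in DMSO, both on log axes, with points and bars for mean ± SD of 3 cultures and a dashed line at the median ratio of those 10485 genes, 0.970. EIF5A lies far above the line, SRM and OAZ2 above it, SAT1, ODC1 and SMS below it, and AMD1, DHPS, AZIN1 and OAZ1 near it.

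The leaders of the annotation's canonical transcripts were read for start codons and for the pyrimidine start of mRNAs most sensitive to mTOR, the TOP motif. For ODC1, AZIN1 and EIF5A these transcripts were not the most abundant coding forms. For OAZ1 the most abundant coding form is not known, as the matched isoforms covered 50.1% of its FPKM. AZIN1 had 3 ATG in its leader, OAZ2 and SAT1 had 2, AMD1, ODC1 and SMS had 1, and SRM, OAZ1, EIF5A and DHPS had none, so that 6 of 10 had at least 1, against 41.9% of 19656 protein-coding genes. The longest leader was that of AZIN1 at 590 bases and the shortest that of SRM at 75, beside a median of 132 over all genes. ODC1 had a closed leader frame of 10 codons. Leader frames closed before the start codon numbered 2 in OAZ2 and 1 in SAT1. Whether leader frames relate to the TE estimates was not tested.

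No member's canonical transcript began with a C followed by 4 pyrimidines, where 4.62% of all genes' did. In RefSeq promoters of GRCh38.p14, 9 of the 10 genes were matched, none with that start, against 4.04% of 27305 promoters. Beginning within 5 bases before or after the start, a C and 4 pyrimidines were found in 2 of the 9, AMD1 and SMS, against 21.1%. In both genes the match lay just before the annotated start, and so outside the annotated transcript. Windows of 25 bases on the gene's strand are shown for the catabolic enzyme and the first synthesis enzyme, with the first 5 transcribed bases in capitals, at chrX:23783163-23783187 for SAT1 and chr2:10448313-10448337 for ODC1.
SAT1: atgttcaaatGCGCAgctcttagtc
ODC1: gtggggctttGTCAGtccctcctgt
The E-box CACGTG, read the same on both strands and known as a MYC site, was found in 1 of 9 promoters, that of SRM, against 7.43% of all. It lay 199 bases before the SRM start, at chr1:11060203-11060226 of GRCh38.p14 (minus strand), in capitals here.
SRM: gccgggcccCACGTGgcccctgga
These are matches of letters in a window and say nothing of binding.

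Among 27 further genes of polyamine supply, breakdown, transport, methionine salvage and hypusination, 22 were tested, and none passed the adjusted p of 0.05 in TE, RF or total RNA in edgeR. In TE 13 were estimated lower and 9 higher, with a median log2 fold change of -0.11. The 3 with the smallest unadjusted p in TE were APIP, DOHH and EIF5A2. APIP, a methionine salvage enzyme, was counted 3, 20 and 47 times in RF of DMSO cultures and 10, 14 and 4 times in rapamycin. Scaled, RF was 9.18 to 31.8 CPM in DMSO and 8.27 to 16.9 CPM in rapamycin, the groups overlapped in RF and in TE, and the log2 fold change of TE was -1.08 (SE 0.40, unadjusted p 0.0172, adjusted p 0.302).

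DOHH, the enzyme that completes hypusine after DHPS, was counted 0, 2 and 12 times in RF of DMSO cultures and 15, 15 and 5 times in rapamycin. All rapamycin cultures lay above DMSO in RF and in TE, which 5.24% and 4.78% of all genes did, and the log2 fold change of TE was 1.59 (SE 0.59, unadjusted p 0.0173, adjusted p 0.302, edgeR), from few counts. EIF5A2 had RF values of 24.5, 61.4 and 52.2 CPM in DMSO and 14.1, 34.9 and 19.9 CPM in rapamycin, with overlapping groups, and its log2 fold change of TE was -1.07 (SE 0.46, unadjusted p 0.0368, adjusted p 0.359, edgeR). The 3 hypusination relatives beside EIF5A and DHPS therefore had estimates of -1.07 for EIF5A2, 0.03 for EIF5AL1 and 1.59 for DOHH, with no common direction. The EIF5AL1 estimate is uncertain, as 98.9% of its 28-base coding windows occur elsewhere in GRCh37. The 8 genes of the methionine cycle and salvage were estimated lower in 5 cases and higher in 3, with a median log2 fold change of TE of -0.23, and the 3 transport genes tested lower in 2 and higher in 1, with a median of -0.02. DESeq2's Wald test called 4 of the 22 in TE, APIP, EIF5A2 and MAT2B lower and DOHH higher, beside 4.61% of all genes lower and 5.21% higher in that fit.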

How the data were processed

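Total RNA and RF of PANC-1 cells were measured in 12 libraries, grouped by their labels. For RF, the authors kept reads of good quality, cut off the linker, and discarded reads under 15 nt or matching ribosomal RNA. HISAT2 aligned both kinds of reads to GRCh37, and the authors deposited the raw counts that featureCounts gave for unique alignments within exons of protein-coding genes. Whether counting used strand is not given in the sources used here. For total RNA, FPKM values per gene and per isoform were also deposited, made with Cuffnorm of Cufflinks 2.2.1 per the labels. The count table also holds the authors' TE comparison (TE per treatment, fold changes and p-values), which was not used, nor were the normalized counts of genes and isoforms.

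Counts were tested with edgeR 4.0.16 in R 4.3.3 (quasi-likelihood, robust, TMM within each library type), TE as the interaction of library type and treatment, for genes with at least 10 RF and 10 RNA counts summed. The p-values were adjusted by Benjamini-Hochberg over the whole table. Isoforms with a mean of at least 1 FPKM were tested with limma 3.58.1 (trend) on log2(FPKM + 1). Log2 TE of each culture (prior count 2) was compared between treatments with the exact permutation test, two-sided (scipy 1.17.1). Alternatives were DESeq2 1.42.0 (its size factors and its Wald test), other filters, TMM over all libraries, limma voom, FPKM in place of counts, other pseudocounts and prior counts, replicate or culture blocks and leaving out each culture. The edgeR tests of TE, RF and total RNA were also run on simulated counts, and the limma and DESeq2 tests were not. The labels call the cultures biological replicates and number them alike in both treatments. Leader features, frames and uniqueness were read from the GRCh37 genome with a GENCODE annotation whose version differs from the authors', and promoters from RefSeq. Leaders and coding lengths are those of the annotation's canonical transcripts.

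A marker gene of the duct list is not reported here. The members and lists were chosen with earlier results of these data known. Named were all 10 members, pathway genes past the threshold or among the 3 with the smallest p in TE, and, of isoforms at 1 FPKM or more, those that were among the 2 most abundant of their gene or past the threshold. ODC1-204, SAT1-208, AZIN2, MAT2B and EIF5AL1 were named for other reasons after their values were seen.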

Additional observations from a re-analysis of the deposited data

How the results depend on the processing

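No member passed in edgeR's fit of TE, RF or total RNA and no other pathway gene in TE or total RNA, and this held under each alternative run but 2. Pathway genes in RF were not run under alternatives. DESeq2's Wald test called 1 member in TE, SAT1 lower, and 4 pathway genes in TE, APIP, EIF5A2 and MAT2B lower and DOHH higher, beside 4.61% of all genes lower and 5.21% higher. Leaving out each culture in turn gave 0 to 1 members called in TE, the 1 being SAT1 without DMSO replicate 3, where 2.67% of all genes were called lower. The cause was not tested. SAT1 kept its direction under every alternative, at -1.41 to -0.97 when a culture was left out and -1.21 to -1.05 otherwise, with adjusted p-values from 0.00279 upward. The SMS estimate in RF, 0.0013 on the log2 scale, was -0.0038 with DESeq2's Wald test and -0.0044 with its size factors. With the replicate number as a block, it was -0.0242, and no call changed. Same-numbered cultures did not deviate together (r across genes from -0.12 to -0.06 in RF and -0.22 to -0.11 in RNA), so the numbers were not taken as pairs.

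Leaving out 1 culture turned the sign of these estimates, none of them called. In TE their ranges were -0.55 to 0.14 for ODC1, -0.0326 to 0.67 for AMD1, -0.95 to 0.0271 for SRM, -0.39 to 0.48 for SMS, -0.22 to 0.10 for OAZ2, -0.56 to 0.24 for AZIN1, -0.29 to 0.0715 for EIF5A and -0.90 to 0.39 for DHPS. In RF they were -0.60 to 0.0217 for ODC1, -0.0651 to 0.53 for AMD1, -0.45 to 0.29 for SMS, -0.27 to 0.0057 for OAZ2, -0.49 to 0.13 for AZIN1 and -0.28 to 0.0319 for EIF5A. In RNA they were -0.10 to 0.0031 for SRM, -0.0534 to 0.014 for OAZ1 and -0.0866 to 0.0014 for AZIN1. In all, 435 of 464 values under alternatives kept direction and side of the threshold, or, as counts of calls, stayed within 1.5 times, while 24 turned in sign, 3 counts of calls moved and 2 estimates, both SAT1 in TE, passed only there. RF depth limits precision, as DMSO replicate 1 and rapamycin replicate 3 hold 303220 and 278835 counts.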

Other observations

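AZIN2, listed in the count table under its older name ADC and known as an antizyme inhibitor like AZIN1, had more footprints than RNA counts in every culture. It was counted 144 to 465 times in RF libraries of 278835 to 1574723 counts and 73 to 87 times in RNA libraries of 78081241 to 94293744 counts. In CPM this was 253 to 441 in RF and 0.803 to 0.903 in total RNA of DMSO cultures, and 385 to 523 in RF and 0.812 to 1.12 in total RNA of rapamycin cultures. The groups overlapped in RF, and the log2 fold change of TE was 0.18 (SE 0.30, adjusted p 0.846, edgeR). In CPM EIF5AL1 was also higher in RF, with 93.5 to 129 CPM in RF and 3.67 to 4.06 CPM in total RNA of DMSO cultures. Of the 28-base coding windows of EIF5AL1, 98.9% occur elsewhere in GRCh37, and the part of this in its RF counts was not tested. Where along these genes the footprints lie was not measured here.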
